A study of Mus musculus with 6 samples.

Results

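The central spindle and cytokinesis genes described here are the 10 genes *Racgap1*, *Kif23*, *Prc1*, *Kif20a*, *Ect2*, *Anln*, *Aurkb*, *Cdca8*, *Incenp* and *Birc5*. They were taken by gene symbol from a table of 13809 genes, and each of the 10 passed the filter on low counts. Their proteins build and steer the machinery that divides a cell after its chromosomes have separated. RNA was sequenced from hearts of mouse embryos at E18.5 in 3 wild-type (WT) libraries and 3 libraries from embryos homozygous for a deletion in the exon specific to *Pkm1* (KO). The deletion was made with CRISPR/Cas9 in zygotes of mixed C57BL/6J and DBA/2 background and is carried in every tissue, so that loss of PKM1 in these embryos was not limited to cardiomyocytes. PKM1 is a pyruvate kinase isoform enriched in muscle and brain, and the study found its level rising in the heart late in gestation. *Pkm2* is spliced from the same gene. The study found no compensatory rise of PKM2, and its discussion states that PKM2 fell and may share in the phenotype. The study describes the tissue as ventricular, whereas the sample labels say heart. No treatment was given to either group. Column names give the genotype without a replicate number, and the letters a, b and c used for the 3 libraries of each genotype follow column order.

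At anaphase, the microtubules between the separating chromosomes are bundled into the central spindle by PRC1 and by centralspindlin, a complex of RACGAP1 and the kinesin KIF23. Centralspindlin recruits the exchange factor ECT2, which activates RhoA at the cell equator, and the scaffold anillin (ANLN) ties RhoA to the actin and myosin of the contractile ring. The chromosomal passenger complex, formed by the kinase Aurora B (AURKB) with INCENP, survivin (BIRC5) and borealin (CDCA8), is carried to the midzone by the kinesin KIF20A. In the heart, cardiomyocytes divide throughout fetal life, and around birth many of them complete mitosis without cytokinesis and become binucleated. Transcripts of this machinery accumulate in G2 and mitosis. Promoters of such genes are controlled through CCAAT boxes bound by NFY and through the cell cycle homology region (CHR). The CHR is bound by the DREAM and MMB complexes in different phases of the cycle.

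Promoters from RefSeq on GRCm38.p6 are shown to place these 2 short motifs in genes that were called between the genotypes and in genes that were not. The promoter table had an entry for 7 of the 10 genes, and *Aurkb*, *Incenp* and *Kif20a* had none. On both strands the NFY box was searched as CCAAT and the CHR as TTTGAA, so that an NFY box on the opposite strand reads ATTGG in the lines printed here. The 150 bases from 120 before to 30 after the annotated start are printed 5′ to 3′ along the gene's strand, with matches in capitals, at chr15:99651627-99651776 on the minus strand for *Racgap1*, chr9:61946770-61946919 on the minus strand for *Kif23*, chr7:80294331-80294480 on the plus strand for *Prc1*, chr3:27153849-27153998 on the minus strand for *Ect2*, chr4:124936888-124937037 on the minus strand for *Cdca8* and chr11:117849117-117849266 on the plus strand for *Birc5*.
Racgap1: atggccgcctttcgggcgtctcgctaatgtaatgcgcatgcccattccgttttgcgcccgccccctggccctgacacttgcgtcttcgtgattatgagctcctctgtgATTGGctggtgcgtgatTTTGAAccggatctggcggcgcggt
Kif23: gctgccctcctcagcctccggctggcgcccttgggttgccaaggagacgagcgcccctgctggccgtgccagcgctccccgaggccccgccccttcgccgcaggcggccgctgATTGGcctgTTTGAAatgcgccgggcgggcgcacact
Prc1: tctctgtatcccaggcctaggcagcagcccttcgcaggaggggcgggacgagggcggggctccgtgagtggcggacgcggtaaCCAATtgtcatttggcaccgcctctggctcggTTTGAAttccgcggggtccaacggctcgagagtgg
Ect2: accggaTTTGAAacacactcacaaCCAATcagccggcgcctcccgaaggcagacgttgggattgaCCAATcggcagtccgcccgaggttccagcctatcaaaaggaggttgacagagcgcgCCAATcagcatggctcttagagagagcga
Cdca8: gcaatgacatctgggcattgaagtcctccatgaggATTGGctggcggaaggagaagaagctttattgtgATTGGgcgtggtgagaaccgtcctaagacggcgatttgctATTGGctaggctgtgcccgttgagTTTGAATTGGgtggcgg
Birc5: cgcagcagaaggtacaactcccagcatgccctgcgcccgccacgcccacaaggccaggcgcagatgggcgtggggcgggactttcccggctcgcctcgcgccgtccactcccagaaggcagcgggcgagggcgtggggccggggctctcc

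In the 300 bases from 250 before to 50 after the start, CCAAT was found in 5 of the 7 promoters (*Racgap1*, *Kif23*, *Prc1*, *Ect2* and *Cdca8*) against 41.1% of 27025 genes with an entry. TTTGAA was found in 6 of 7, the same 5 and *Anln*, against 20.2% of all genes, and both motifs together were found in 5 of 7 against 7.97%. In *Racgap1* and *Kif23* the motifs lay in like positions. Counting the start as +1, CCAAT began on the opposite strand at -12 in *Racgap1* and at -7 in *Kif23*, followed by TTTGAA at 6 and at 3. *Prc1* carried CCAAT at -37 and TTTGAA at -5. *Cdca8* had 4 opposite-strand CCAAT matches, 1 of which overlapped its TTTGAA, and *Birc5* had neither CCAAT nor TTTGAA in this window. Only these exact letters were searched, so a variant of either motif would be missed. These are matches of letters only, and binding was not measured in these data.

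Levels are given as CPM, counts scaled to library size by edgeR's TMM method, and changes as log2 fold changes of KO over WT with their standard error (SE). A gene was called where edgeR's quasi-likelihood test gave a Benjamini-Hochberg adjusted p under 0.05 over the 13804 genes tested. Of the 10 genes, 6 were called lower in KO hearts (*Racgap1*, *Prc1*, *Kif20a*, *Cdca8*, *Incenp* and *Birc5*), where 15.7% of all genes tested were called lower. By edgeR's quasi-likelihood test 0 of the 10 were called higher, also at an unadjusted p under 0.05 and with DESeq2, edgeR's exact test or limma's voom, where 14.6% of all genes were called higher, and 30.3% of all genes were called in either direction. Without KO a, 3 of the 10 were called lower (*Racgap1*, *Prc1* and *Incenp*). Over all genes that fit called 1704 lower, against 2168 with every library. The called genes fell by 10.4% to 14.7% of their WT mean. Every KO library lay below every WT library for 6 genes (*Racgap1*, *Prc1*, *Kif20a*, *Anln*, *Cdca8* and *Incenp*), as for 21.4% of all genes, and for 0 of the 10 did every KO library lie above, as for 21.0% of all genes. The median log2 fold change of the 10 was -0.17, beside 0.0017 for all genes tested. Summed over the 10, the level was 797 ± 2.98 CPM in WT libraries and 725 ± 6.90 CPM in KO libraries (SD, n = 3). *Racgap1*, *Prc1*, *Kif20a* and *Cdca8* are among the genes the study itself picked from these libraries, so their direction is not independent evidence.

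**Figure D1:**
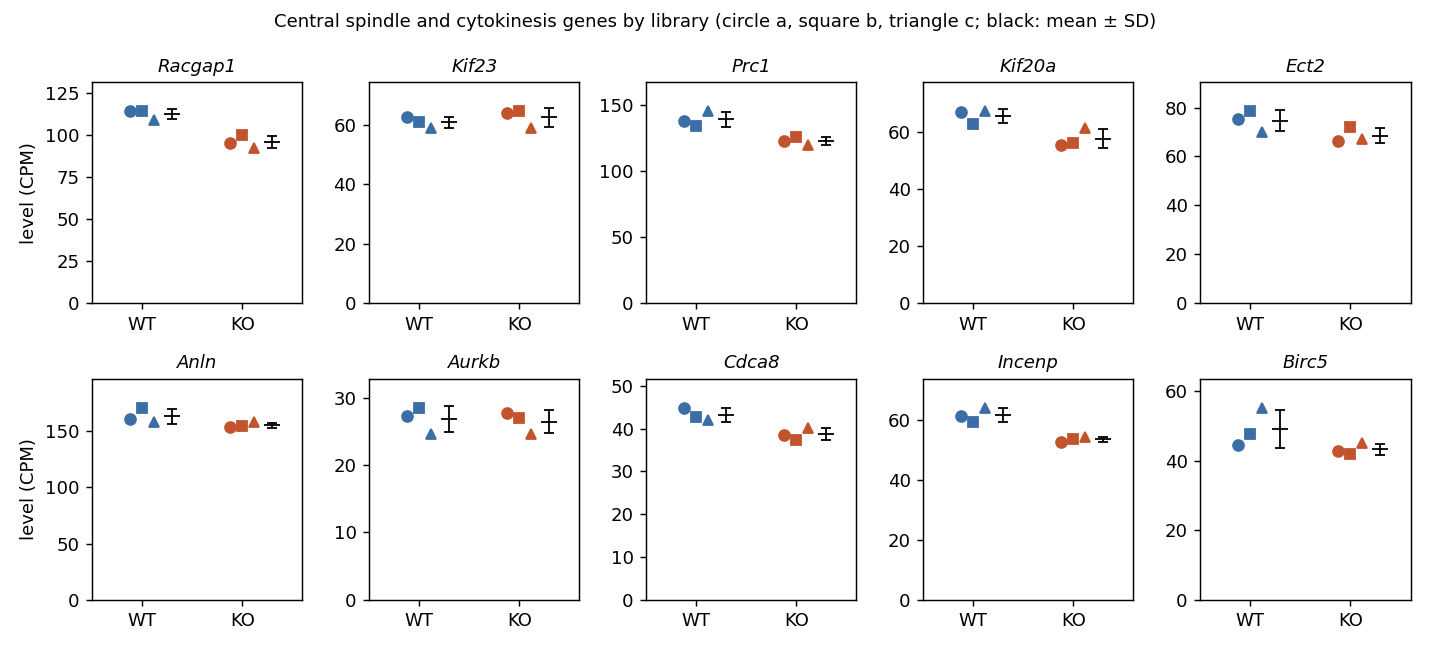
Level in CPM (vertical axes, each starting at 0) of the 10 genes in the 3 WT (blue) and 3 KO (orange) libraries, with the mean and SD in black. The KO points of *Racgap1*, *Prc1* and *Incenp* sit clear below the WT points, and those of *Kif20a* and *Cdca8* sit below by only 1.47 and 1.78 CPM. The KO points of *Kif23* and *Aurkb* sit among the WT points, and 1 WT library carries the spread of *Birc5*.

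Total counts were 15597756 to 19875546 per library in WT and 15567624 to 18577404 in KO, and these ranges overlap. Several other measures of these libraries moved with genotype. *Pkm*, whose reads cannot be split here between *Pkm1* and *Pkm2*, was at 1318 ± 41.1 CPM in WT libraries and 542 ± 10.1 CPM in KO libraries (SD, n = 3). *Xist*, transcribed from the inactive X chromosome, was at 5.26 ± 0.50 CPM in WT libraries and 2285 ± 47.6 CPM in KO libraries (SD, n = 3), and *Kdm5d*, *Eif2s3y*, *Uty* and *Ddx3y* of the Y chromosome were counted in every WT library and had 0 counts in every KO library. Sex and genotype therefore cannot be told apart for any change given here. Of 10 cardiomyocyte markers, 8 were lower and 1 (*Myh7*) higher in KO, and their summed level was 132300 to 136400 CPM in WT and 124700 to 126200 CPM in KO. Endothelial markers had 3 lower and 1 higher of 7, fibroblast markers 4 lower and 0 higher of 8, smooth muscle markers 1 lower and 1 higher of 4, and immune markers 1 lower and 0 higher of 6. Endothelial sums were 1146 to 1149 CPM in WT and 1109 to 1128 CPM in KO. Fibroblast sums were 3946 to 3992 CPM in WT and 3677 to 3746 CPM in KO. Smooth muscle and immune sums overlapped between the genotypes. Of 6 epicardial markers 3 were higher and 0 lower, with sums of 123.8 to 126.6 CPM in WT and 140.6 to 154.6 CPM in KO. Of 4 erythroid markers tested 2 were higher and 1 lower, with sums of 158.5 to 176.6 CPM in WT and 255.5 to 267.1 CPM in KO, and the globins were not analysed here. No defining marker among those tested was at 0. The part of sex and of cell makeup in the results was not tested. In bulk tissue, fewer dividing cells and less RNA per dividing cell cannot be told apart.

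Of the 2 genes of centralspindlin, *Racgap1* was lower in KO and *Kif23* was not called. *Racgap1* encodes the GTPase-activating subunit that binds ECT2 and lies on chromosome 15 from 99620496 to 99651656 (minus strand, GRCm38). It was at 114, 114 and 109 CPM in WT a, b and c and at 95, 99.8 and 92.3 CPM in KO a, b and c. The WT libraries lay close together and all above the KO libraries. *Racgap1* fell by 14.7% of the WT mean, with a log2 fold change of -0.23 (SE 0.042, Benjamini-Hochberg adjusted p = 1.17e-04 in edgeR's quasi-likelihood test). *Kif23*, on chromosome 9 from 61915905 to 61946774 (minus strand), encodes the kinesin that bundles the antiparallel microtubules. It was at 62.6, 61.0 and 58.9 CPM in WT and at 63.8, 64.5 and 58.9 CPM in KO, and the groups overlapped. Its log2 fold change was 0.04 (SE 0.050, 95% interval -0.07 to 0.14, Benjamini-Hochberg adjusted p = 0.634 in edgeR's quasi-likelihood test), and the interval excludes a fall of the size measured for *Racgap1*.

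The stoichiometry of the pair was followed as the log2 ratio of *Kif23* to *Racgap1* counts within each library, which no scaling between libraries can move. The ratio was -0.863, -0.902 and -0.884 in WT a, b and c and -0.573, -0.629 and -0.647 in KO a, b and c. Every KO library lay above every WT library, and the means differed by 0.27 with SDs of 0.0196 in WT and 0.0382 in KO (n = 3 each). The two-sided exact permutation test gave p = 0.1, the smallest that 3 against 3 libraries allow, and 0.35 after adjustment over the 7 ratios tested. At this number of libraries no single ratio could pass the threshold.

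Both midzone proteins outside these complexes had lower transcripts in KO. *Prc1*, the microtubule cross-linker on chromosome 7 from 80294450 to 80316259 (plus strand), was at 138, 134 and 146 CPM in WT and at 123, 126 and 120 CPM in KO. It fell by 11.7%, with a log2 fold change of -0.18 (SE 0.039, Benjamini-Hochberg adjusted p = 0.00105 in edgeR's quasi-likelihood test). *Kif20a*, the kinesin that carries the passenger complex to the midzone, lies on chromosome 18 from 34624613 to 34633277 (plus strand). It was at 67.0, 62.9 and 67.3 CPM in WT and at 55.3, 56.0 and 61.5 CPM in KO. KO c, the highest KO library, lay nearest to WT b, the lowest WT library, and the groups did not overlap. The log2 fold change of *Kif20a* was -0.19 (SE 0.052, Benjamini-Hochberg adjusted p = 0.00710 in edgeR's quasi-likelihood test). Without KO a the call of *Kif20a* was lost (adjusted p = 0.0587 by the same edgeR test). The *Prc1* to *Kif20a* log2 ratio was 1.09 ± 0.0353 in WT and 1.10 ± 0.114 in KO (SD, n = 3; exact permutation p = 1).

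Some exons of these genes are shared with genes on the opposite strand, and the sources used here do not say whether counting used strand. The overlap is 29.3% of the exonic bases of *Kif20a* with *Cdc23*, 11.1% of *Prc1* with *Rccd1* and 4.48% of *Cdca8* with 9930104L06Rik. *Cdc23*, a subunit of the anaphase-promoting complex, was at 62.5 ± 0.971 CPM in WT libraries and 65.3 ± 3.00 CPM in KO libraries (SD, n = 3; log2 fold change 0.06). *Rccd1* was at 9.33 ± 0.360 CPM in WT libraries and 9.57 ± 1.72 CPM in KO libraries (SD, n = 3; log2 fold change 0.04). 9930104L06Rik was higher in KO, at 7.13 ± 0.772 CPM in WT libraries and 9.32 ± 1.05 CPM in KO libraries (SD, n = 3; log2 fold change 0.38). None of these partners was lower in KO, and their part in the counts of the 3 genes was not tested.

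Neither gene of the furrow was called. *Ect2*, which encodes the exchange factor that turns on RhoA, lies on chromosome 3 from 27097222 to 27153878 (minus strand). It was at 75.5, 78.5 and 70.0 CPM in WT and at 66.5, 71.9 and 67.2 CPM in KO. WT c lay below KO b, so the groups overlapped. The log2 fold change of *Ect2* was -0.13 (SE 0.050, 95% interval -0.23 to -0.03), and its Benjamini-Hochberg adjusted p of 0.0536 in edgeR's quasi-likelihood test missed the threshold. Without WT c it passed (adjusted p = 0.00248 by the same edgeR test), as it did without KO b (adjusted p = 0.0392 by the same edgeR test). *Anln*, the anillin gene on chromosome 9 from 22332012 to 22389188 (minus strand), was at 161, 171 and 158 CPM in WT and at 154, 155 and 158 CPM in KO. The groups stood apart by only 0.0135 CPM, between WT c and KO c. The log2 fold change of *Anln* was -0.07 (SE 0.037, 95% interval -0.15 to 0.0027, Benjamini-Hochberg adjusted p = 0.137 in edgeR's quasi-likelihood test). Without WT c *Anln* too was called (adjusted p = 0.0186 by the same edgeR test). The log2 ratio of *Ect2* to *Racgap1* was -0.592, -0.537 and -0.635 in WT and -0.515, -0.472 and -0.457 in KO, higher in each KO library than in any WT library (difference 0.11, exact permutation p = 0.1, the smallest possible, adjusted 0.35).

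**Figure D2:**
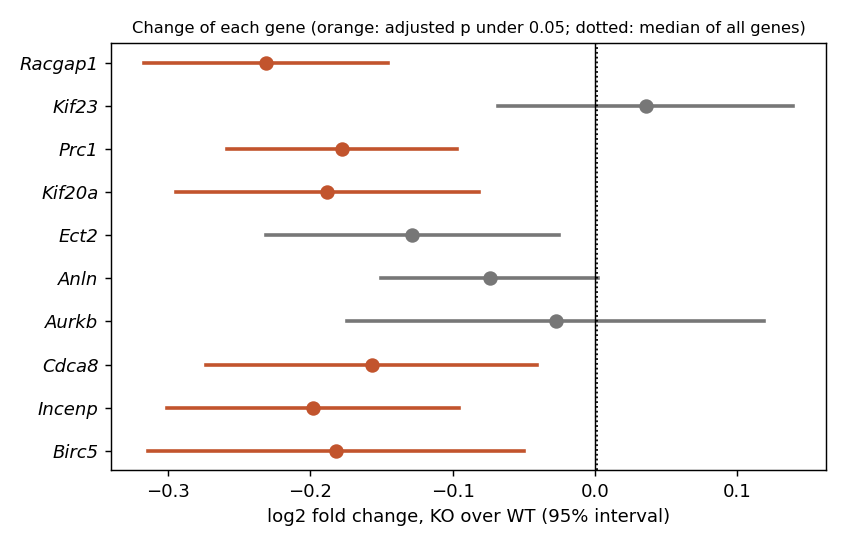
Log2 fold change of KO over WT (horizontal axis) for each of the 10 genes with its 95% interval, in orange where the adjusted p was under 0.05 and in grey otherwise. The dotted line is the median of all genes tested, 0.0017, and the interval of *Kif23* reaches no lower than -0.07 where that of *Racgap1* ends at -0.15.

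In the chromosomal passenger complex, the 3 genes for subunits other than the kinase were lower in KO and the gene for the kinase was not called. *Aurkb*, on chromosome 11 from 69045647 to 69051664 (plus strand), was at 27.4, 28.6 and 24.7 CPM in WT and at 27.8, 27.0 and 24.6 CPM in KO. The groups overlapped throughout. Its log2 fold change was -0.03 (SE 0.071, 95% interval -0.17 to 0.12, Benjamini-Hochberg adjusted p = 0.809 in edgeR's quasi-likelihood test). This interval holds the change measured for *Cdca8* and ends above those measured for *Incenp* and *Birc5*. *Incenp*, the scaffold that binds and activates the kinase, lies on chromosome 19 from 9872296 to 9899551 (minus strand). It was at 61.2, 59.4 and 64.1 CPM in WT and at 52.8, 53.6 and 54.4 CPM in KO, with all KO libraries close together and below the WT libraries. The log2 fold change of *Incenp* was -0.20 (SE 0.050, Benjamini-Hochberg adjusted p = 0.00342 in edgeR's quasi-likelihood test).

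*Cdca8*, which encodes borealin, lies on chromosome 4 from 124918465 to 124939311 (minus strand). It was at 44.9, 42.7 and 42.0 CPM in WT and at 38.6, 37.3 and 40.2 CPM in KO, without overlap. Its log2 fold change was -0.16 (SE 0.057, Benjamini-Hochberg adjusted p = 0.0366 in edgeR's quasi-likelihood test). *Birc5*, which encodes survivin, lies on chromosome 11 from 117849251 to 117855743 (plus strand). It was at 44.7, 47.8 and 55.3 CPM in WT and at 42.7, 41.9 and 45.1 CPM in KO. WT c stood above the other WT libraries, and WT a lay below KO c. The log2 fold change of *Birc5* was -0.18 (SE 0.064, Benjamini-Hochberg adjusted p = 0.0330 in edgeR's quasi-likelihood test), and without WT c it was -0.10 (adjusted p = 0.203 by the same edgeR test). The calls of *Cdca8* and *Birc5* were also lost with DESeq2 (adjusted p = 0.0995 and 0.0714). With 1 library left out, edgeR's test lost the call of *Cdca8* without WT a, WT b, KO a or KO b (adjusted p = 0.0641 to 0.138) and that of *Birc5*, besides WT c, without WT b, KO a or KO b (adjusted p = 0.0501 to 0.121).

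Set against *Aurkb* within each library, the partners were not shown to differ in their change. The log2 ratio to *Aurkb* differed between KO and WT by -0.18 for *Incenp*, -0.14 for *Cdca8* and -0.16 for *Birc5*. With 1 library left out, these differences ran from -0.25 (without WT b) to -0.09 (without WT c) for *Incenp*, from -0.22 (without KO c) to -0.10 (without KO b) for *Cdca8* and from -0.24 (without WT a or KO c) to -0.02 (without WT c) for *Birc5*. The groups overlapped in each of these ratios, and the exact permutation p was 0.2, 0.2 and 0.5 (0.35, 0.35 and 0.583 adjusted over the 7 ratios). The ratio of *Anln* to *Ect2* differed by 0.05 (exact permutation p = 0.3, adjusted 0.42), and by 0.03 (without KO c) to 0.09 (without KO b) with 1 library left out. Of the 7 ratios, *Kif23* to *Racgap1* and *Ect2* to *Racgap1* separated the genotypes without overlap, and these ratios share *Racgap1* as denominator.

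**Figure D3:**
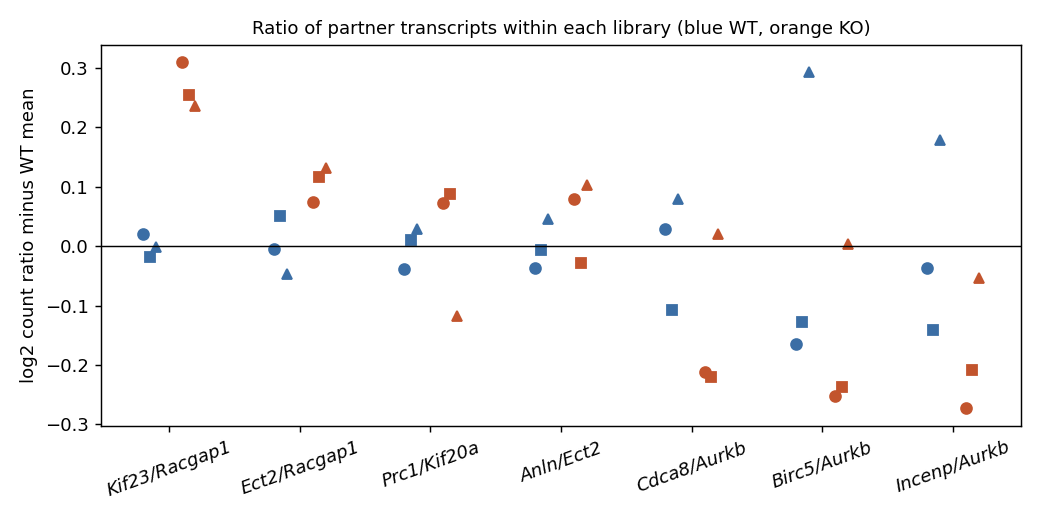
Log2 ratio of the counts of 2 genes within a library (vertical axis, minus the WT mean) for 7 pairs, WT in blue and KO in orange, with circle, square and triangle for libraries a, b and c. The KO points for *Kif23* to *Racgap1* lie above the WT points by 0.27 on average, and those of the 3 ratios to *Aurkb* run into the WT points.

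Among themselves, the WT levels of the 10 genes were compared per kilobase of annotated exon. *Anln* stood at 18 ± 0.757, *Prc1* at 17.0 ± 0.691, *Racgap1* at 15.8 ± 0.427, *Kif20a* at 15.2 ± 0.563, *Birc5* at 14.5 ± 1.61, *Incenp* at 14.2 ± 0.550 and *Ect2* at 13.9 ± 0.807 CPM per kb (SD, n = 3). *Aurkb* at 9.13 ± 0.674, *Cdca8* at 8.34 ± 0.300 and *Kif23* at 7.70 ± 0.237 CPM per kb (SD, n = 3) were the lowest. Neighbours in this order lay within 1 SD of each other at several steps, such as *Birc5*, *Incenp* and *Ect2*. The order depended on the length used. With the longest transcript in place of all exons, *Prc1* led at 38.3 CPM per kb, *Anln* followed at 35.5 CPM per kb, and *Kif23* moved from rank 10 to rank 5 at 17.9 CPM per kb.

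The neighbouring steps of division were read from 7 further lists, in which 30 of 127 genes tested were called lower and 7 higher (29.1% in all, near the 30.3% of all genes), with a median log2 fold change of -0.06. Among 14 other genes of the midzone and the passenger complex, 6 were lower, 0 higher and 8 not called (42.9% called, median -0.10). At an unadjusted p under 0.05 edgeR's test gave 7 lower and 1 higher, and without KO c 3 of the 14 were called lower. *Clasp1*, a microtubule plus-end stabiliser, fell from 793 ± 8.58 to 629 ± 2.06 CPM (log2 fold change -0.33). The chromokinesin *Kif4* fell from 68.8 ± 2.10 to 59.8 ± 1.67 CPM (log2 fold change -0.21), and *Kif14*, a kinesin that binds PRC1, from 37.7 ± 0.495 to 32.7 ± 0.892 CPM (log2 fold change -0.21; SD, n = 3).

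Of the contractile ring and RhoA pathway, 9 of 18 genes tested were lower, 2 higher and 7 not called (61.1% called, median -0.11). *Diaph1* and *Diaph3* were not analysed here. *Arhgap11a*, a RhoA GTPase-activating protein, fell from 98.7 ± 2.20 to 81.0 ± 4.02 CPM (log2 fold change -0.28). *Rock2*, a kinase downstream of RhoA, fell from 338 ± 5.71 to 281 ± 9.36 CPM (log2 fold change -0.27), and *Iqgap3* from 124 ± 0.772 to 106 ± 2.18 CPM (log2 fold change -0.22; SD, n = 3). The myosin light chain *Myl9* rose from 323 ± 6.92 to 410 ± 6.53 CPM (log2 fold change 0.34) and the septin *Sept9* from 78.6 ± 2.28 to 85.4 ± 0.735 CPM (log2 fold change 0.12; SD, n = 3). With DESeq2 1 gene of this list was called higher, as when any of WT a, WT b or a KO library was left out. The genes of this list also serve the cytoskeleton of cells that are not dividing.

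The last step of division is abscission at the midbody. Of 22 genes of this step 3 were lower, 0 higher and 19 not called (13.6% called, median -0.02), and 12 lay below and 10 above no change. Of all genes tested, 30.3% were called in either direction and 15.7% lower. Bulk RNA does not tell whether the transcripts of this list came from dividing cells. At an unadjusted p under 0.05 edgeR's test gave 3 lower and 2 higher. With 1 library left out, 1 was called higher without KO b, and 2 were called lower without WT b or KO c and 4 without WT c. *Chmp4c*, an ESCRT-III subunit of the abscission checkpoint, fell from 14.5 ± 0.475 to 10.2 ± 0.486 CPM (log2 fold change -0.50). *Cep55*, which recruits ESCRT proteins to the midbody, fell from 32.0 ± 0.185 to 26.2 ± 0.945 CPM (log2 fold change -0.28), and the ESCRT-III gene *Chmp1b* from 24.5 ± 1.54 to 20.4 ± 1.56 CPM (log2 fold change -0.27; SD, n = 3).

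**Figure D4:**
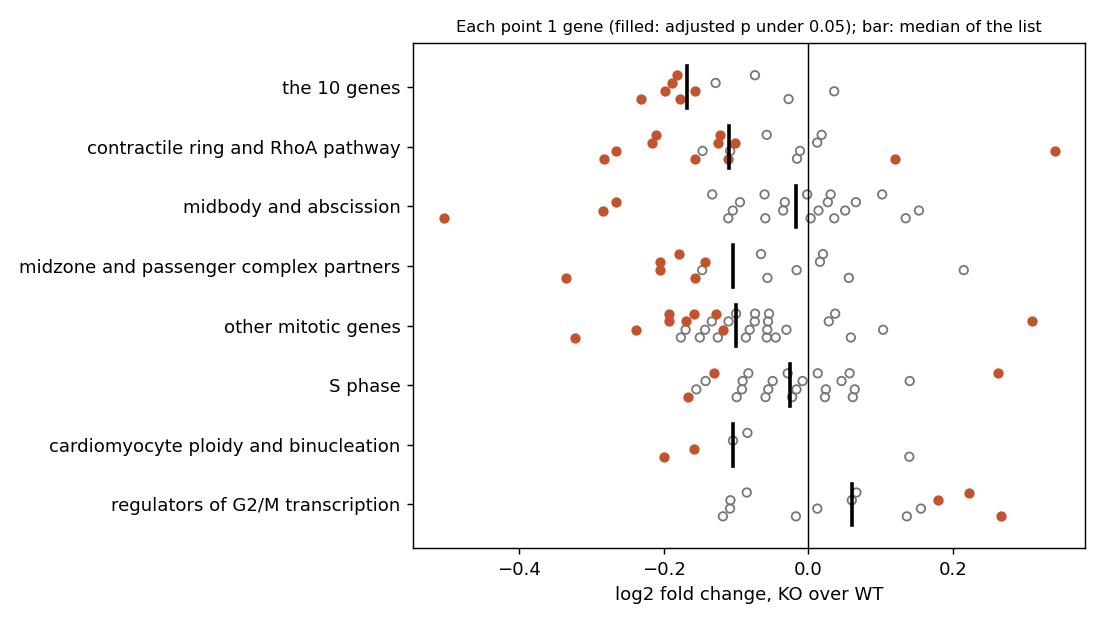
Log2 fold change of KO over WT (horizontal axis) of each gene in the 10 genes and 7 further lists, filled where the adjusted p was under 0.05, with a bar at the median of the list. Medians run from -0.17 for the 10 genes to 0.06 for the regulators of G2/M transcription, and midbody and S phase genes spread around 0.

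Earlier phases of the cycle were read from 2 lists. Of 31 other mitotic genes, 8 were lower, 1 higher and 22 not called, and 26 lay below no change (29% called, median -0.10). The kinetochore gene *Cenpf* fell from 263 ± 4.98 to 211 ± 6.46 CPM (log2 fold change -0.32), the centrosomal kinase gene *Nek2* from 36.5 ± 1.49 to 30.9 ± 0.923 CPM (log2 fold change -0.24) and *Cdc20* from 56.3 ± 1.75 to 49.2 ± 1.47 CPM (log2 fold change -0.19; SD, n = 3). *Ccnf*, which encodes cyclin F, rose from 23.1 ± 0.929 to 28.6 ± 2.08 CPM (log2 fold change 0.31; SD, n = 3). Of 24 S phase genes, 2 were lower, 1 higher and 21 not called (12.5% called beside 30.3% of all genes, median -0.03). *Rrm2*, a ribonucleotide reductase subunit, had a log2 fold change of -0.17 and the helicase subunit *Mcm4* of -0.13, and the origin licensing gene *Cdc6* was higher at 0.26. *Mcm4* was only just under the threshold (Benjamini-Hochberg adjusted p = 0.0494 in edgeR's quasi-likelihood test). With DESeq2 1 of the S phase genes was called lower and 0 higher, without WT b, KO a or KO b 1 was lower, without WT c 5 were lower, and without any library other than WT c 0 were higher. Differences between lists were not tested.

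Of 5 genes tied to ploidy and binucleation of cardiomyocytes, 2 were lower, 0 higher and 3 not called (40% called, median -0.10). At an unadjusted p under 0.05 edgeR's test gave 3 lower and 1 higher. With DESeq2 1 of the 5 was called lower, as when WT a, WT b, KO a or KO c was left out. The same held with a filter of 10 counts in each library and with X and Y genes left out. *Ccng1*, which encodes cyclin G1, fell from 283 ± 12.4 to 247 ± 3.75 CPM (log2 fold change -0.20) and the atypical repressor *E2f7* from 36.6 ± 1.04 to 32.8 ± 1.62 CPM (log2 fold change -0.16; SD, n = 3). Both *Ccng1* and *E2f7* are also among the genes the study itself picked from these libraries, so their direction is not independent evidence. *E2f7* was only just under the threshold (Benjamini-Hochberg adjusted p = 0.0496 in edgeR's quasi-likelihood test). Among 13 regulators of G2/M transcription, which include the NFY subunits and genes of the DREAM and MMB complexes, 0 were lower, 3 higher and 10 not called (median 0.06). That is 23.1% called, where 30.3% of all genes were called in either direction and 14.6% higher. At an unadjusted p under 0.05 edgeR's test gave 1 lower and 4 higher. With DESeq2 2 of the 13 were called higher, as without KO b or KO c. The NFY subunit *Nfya* rose from 43.1 ± 2.32 to 51.8 ± 2.39 CPM (log2 fold change 0.27, SE 0.056, Benjamini-Hochberg adjusted p = 6.92e-04 in edgeR's quasi-likelihood test; SD, n = 3). By qRT-PCR the study itself found *Nfya* mRNA unchanged in KO hearts, and by western blot and staining it found less NFYa protein. *Nfyc* rose from 68.5 ± 1.43 to 79.8 ± 4.22 CPM (log2 fold change 0.22) and *Rbl1*, a pocket protein of the DREAM complex, from 42.5 ± 1.42 to 48.2 ± 2.95 CPM (log2 fold change 0.18; SD, n = 3).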

How the data were processed

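Total RNA from hearts of WT and KO embryos was depleted of ribosomal RNA and sequenced as paired ends in 3 libraries per genotype. The submitters' processing notes name cutadapt 1.18, HISAT2, StringTie and the mm10 build. The program that counted reads per gene, and whether it used strand, is not given in the sources used here. The deposited table holds the authors' raw counts by gene symbol in a column for each library, and beside them their own edgeR comparison (fold changes, mean levels, p-values and false discovery rates), which was not used. No other column of samples was present. Within each genotype every pair of libraries differed by more than sampling noise (chi-square per degree of freedom 1.56 to 3.76), and nothing says whether the embryos were pooled, so p-values measure the spread between these libraries.

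Counts were filtered with filterByExpr (13804 of 13809 genes kept), scaled by TMM and tested with the quasi-likelihood test of edgeR 4.0.16 in R 4.3.3, with no term but genotype and with p-values adjusted over the whole table by the Benjamini-Hochberg method. The threshold was an adjusted p under 0.05. Ratios of 2 genes within a library were compared by the two-sided exact permutation test. The 10 genes, the further lists and the marker lists were chosen with earlier results of these data known. All 10 genes are named, with, from each further list, up to 3 called genes with the largest change in each direction. Coordinates and exon lengths are from GENCODE M21 on GRCm38, the same assembly as mm10. Alternatives were DESeq2 1.42.0, voom of limma 3.58.1, edgeR's exact test, RLE size factors, TMM without *Rn45s*, leaving out X and Y genes, no filter, a filter of 10 counts in each library, and each library left out in turn. Figures were drawn with matplotlib 3.10.9.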

Additional observations from a re-analysis of the deposited data

How the results depend on the processing

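Under 14 alternative fits, *Racgap1*, *Prc1* and *Incenp* stayed lower in KO with an adjusted p under 0.05 by the tool of each fit, *Kif20a* in 13, *Cdca8* and *Birc5* in 9, and *Ect2* in 3. *Anln* was called in 1, and *Kif23* and *Aurkb* in none. The number of the 10 genes called lower was 6, between 4 (DESeq2) and 7 (voom) under other tools and scalings, and from 3 (without KO a) to 7 with 1 library left out, and 0 were called higher in every fit. The cause of these losses was not tested. *Aurkb* turned direction with 1 library left out (log2 fold change -0.0825 to 0.0243, above 0 without WT b, 0.0190, and without KO c), as did the difference in the *Prc1* to *Kif20a* ratio (-0.00634, -0.0161 and -0.0231 without WT a, KO a and KO b), which ran from -0.0231 to 0.0792. In the 7 further lists, 30 genes were called lower (23 to 37 with 1 library left out) and 7 higher, 4 with DESeq2 and 4 to 7 with 1 library left out, the fewest without KO c. The count of all genes called was 2168 lower and 2011 higher, and 1639 and 1363 with DESeq2. With 1 library left out, that count also moved, from 1704 (without KO a) to 2306 lower and from 1479 (without KO c) to 2013 higher. No paired analysis was possible because replicate numbers are absent from the column names. *Aurkb* had 376 counts in its smallest library and the widest interval of the 10.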

Other observations

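The 10 genes did not move as a block from library to library within a genotype. WT c was the lowest WT library for 6 genes (*Racgap1*, *Kif23*, *Ect2*, *Anln*, *Aurkb* and *Cdca8*) and the highest for the other 4 (*Prc1*, *Kif20a*, *Incenp* and *Birc5*). KO c was the highest KO library for 5 genes (*Kif20a*, *Anln*, *Cdca8*, *Incenp* and *Birc5*) and the lowest for 4 (*Racgap1*, *Kif23*, *Prc1* and *Aurkb*). The changes of the 10 genes were also placed by size among all genes. The log2 fold change of *Racgap1* was larger, without regard to sign, than that of 71.0% of all genes tested, that of *Kif23* than 15.3% and that of *Aurkb* than 11.4%.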
